A study of Mus musculus with 12 samples.

Results

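The receptors for BAFF, APRIL and CD40 ligand, and surface markers of mature B cells, were followed under 9 gene names: Tnfrsf13c, Tnfrsf13b, Cd40, Traf3, Fcer2a, Cr2, Ms4a1, Cd55 and Fcrl1. A gene was taken when its symbol stood alone on a probe set in the annotation of the array, and the probe set of highest mean represented it. By that rule 8 of the 9 names were found among 18194 genes, and Traf3 was not analysed here. All 8 passed the filter on low values, log2 intensity above 4 on at least 3 of the 12 arrays, as did 10287 of the 18194 genes. Cr2 was above that floor on 9 arrays and the other 7 genes on all 12.

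The arrays hold RNA of bone marrow cells from mice aged 4 to 6 weeks, littermates on a background given as 94% C57BL/6, taken with magnetic beads against B220 (CD45R, encoded by Ptprc), a surface protein of the B lineage. The 4 genotypes had 3 biological replicates each: wild type, Eµ-TTP-1 transgenic (here TTP), precancerous Eμ-Myc transgenic (Myc) and precancerous mice with both transgenes (Myc TTP). Eµ is the immunoglobulin heavy chain enhancer, which drives a transgene in B cells. Myc is a transcription factor that drives growth and division, and tristetraprolin, TTP, encoded by Zfp36, is a protein that binds AU-rich elements in mRNAs and speeds their decay. The study's title asks whether TTP restrains Myc-induced lymphoma. Values are intensities on Affymetrix MOE430 2.0 arrays, given as log2 unless called intensity. In such bulk samples fewer cells of a type and less RNA per cell cannot be told apart.

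BAFF and APRIL are ligands of the TNF family that keep B cells alive. BAFF acts mainly through BAFF-R (Tnfrsf13c), which B cells acquire as they leave the immature stage in the marrow, while both ligands bind TACI (Tnfrsf13b) and APRIL also binds BCMA (Tnfrsf17). CD40 receives CD40 ligand from activated T cells. All of these act through TRAF proteins: TRAF3, with TRAF2 and the ligases cIAP1 and cIAP2, holds the kinase NIK at a low level until a receptor is engaged, after which NIK opens the alternative NF-κB pathway of NFKB2 and RELB. In the marrow, CD23 (Fcer2a) and CD21 (Cr2) mark recirculating mature B cells, while CD20 (Ms4a1) is already present at earlier stages.

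The transgenes were checked before any comparison. Myc arrays 1 to 3 showed a Myc intensity of 13361, 15451 and 8163, Myc TTP arrays 3617, 6801 and 10551, wild-type arrays 805, 819 and 6411, and TTP arrays 1060, 1343 and 11360. The library labelled wild type 3 and the library labelled TTP 3 therefore go against their labels in Myc, and the comparisons of the 8 genes and the counts of the gene lists that use them are given with and without both. Zfp36 ranged from 878 to 952 on the TTP arrays and from 892 to 1663 on the wild-type arrays. It was 177, 393 and 579 on the Myc TTP arrays, all below the 623, 647 and 1022 of the Myc arrays, so the probe set showed no rise with the TTP transgene in either background. Whether it can detect the transgene's message was not tested. Ptprc was bright on every array, from 9248 to 22814. The labels call the replicates biological, and no batch is given in them.

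RefSeq start sites were matched for 6 of the 8 genes, with 8 windows of 300 bases, 250 before a start and 50 after it. The 4 shown here were chosen because they hold a motif of a factor family known in B cells, and capitals mark the match. The windows are chr15:82224331-82224630 on the minus strand for Tnfrsf13c, chr8:3690812-3691111 on the minus strand for Fcer2a, chr3:87376137-87376436 on the plus strand for Fcrl1 and chr1:130462695-130462994 on the minus strand for Cd55, all from RefSeq on GRCm38.p6. Those of Fcer2a and Cd55 are at a start inside the gene.
Tnfrsf13c: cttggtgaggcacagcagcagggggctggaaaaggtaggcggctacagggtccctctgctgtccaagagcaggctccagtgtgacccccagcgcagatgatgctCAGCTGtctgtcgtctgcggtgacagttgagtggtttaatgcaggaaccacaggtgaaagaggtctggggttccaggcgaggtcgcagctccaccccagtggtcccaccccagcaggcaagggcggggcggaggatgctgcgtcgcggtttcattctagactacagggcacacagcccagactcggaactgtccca
Fcer2a: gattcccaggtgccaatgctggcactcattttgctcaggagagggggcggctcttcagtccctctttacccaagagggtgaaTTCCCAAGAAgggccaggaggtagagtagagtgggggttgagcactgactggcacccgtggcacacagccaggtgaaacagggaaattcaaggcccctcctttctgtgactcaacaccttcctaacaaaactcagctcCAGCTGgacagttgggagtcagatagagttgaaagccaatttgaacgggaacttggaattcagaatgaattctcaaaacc
Fcrl1: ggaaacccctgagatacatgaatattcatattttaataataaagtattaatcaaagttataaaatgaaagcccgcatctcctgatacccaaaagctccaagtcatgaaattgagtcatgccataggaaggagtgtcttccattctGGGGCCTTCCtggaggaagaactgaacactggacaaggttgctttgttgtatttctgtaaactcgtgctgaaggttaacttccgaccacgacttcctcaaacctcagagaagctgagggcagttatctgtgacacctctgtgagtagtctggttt
Cd55: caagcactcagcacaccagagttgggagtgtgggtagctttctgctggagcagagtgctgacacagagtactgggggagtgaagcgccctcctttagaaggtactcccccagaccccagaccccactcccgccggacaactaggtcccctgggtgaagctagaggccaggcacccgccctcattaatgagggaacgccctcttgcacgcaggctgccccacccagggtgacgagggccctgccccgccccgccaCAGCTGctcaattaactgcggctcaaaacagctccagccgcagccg

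Both strands were searched for 4 motifs. The E-box of Myc and Max, CACGTG, was in 7.15% of 32851 RefSeq windows and in none of the 8 windows of these genes. CAGCTG, the E-box form of E proteins such as E2A, was in 16.3% of all windows and in those of 3 genes. It lay 146 bases before the start in Tnfrsf13c, 30 before the inner start in Fcer2a and just after the inner start of Cd55. The NF-κB consensus was in 8.46% of all windows and in that of Fcrl1, 105 bases before the start. The STAT6-type palindrome TTCNNNNGAA was in 6.95% of all windows and in the Fcer2a window, 168 bases before the start. These matches describe letters, not binding.

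The receptors were lower in Myc marrow. In Myc over wild type, 3 of 3 tested receptors fell: Tnfrsf13c by 1.65 ± 0.33 on the log2 scale (SE, 3.14-fold), Tnfrsf13b by 0.76 ± 0.19 (1.696-fold) and Cd40 by 2.37 ± 0.53 (5.15-fold), each with a limma Benjamini-Hochberg adjusted p of 0.0479 over all 10287 genes. Adjusted p under 0.05 is the threshold throughout. Among the 8 genes, 4 passed it, all lower, the fourth being Fcer2a, against 11% of all genes tested, or 10.6% counted in the lower direction. The median difference of the 8 was -1.34, beside -0.21 over all genes.

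Tnfrsf13c (chr15:82221742-82224380) encodes BAFF-R, the receptor through which BAFF sustains maturing B cells. It was at 12.66, 12.75 and 11.995 on wild-type arrays 1 to 3, at 12.43, 12.39 and 11.38 on TTP arrays, at 10.50, 10.51 and 11.45 on Myc arrays and at 11.21, 10.89 and 11.08 on Myc TTP arrays. Every Myc array lay below every wild-type array, while TTP 3 lay below Myc 3. Means were 12.47 ± 0.41, 12.07 ± 0.60, 10.82 ± 0.54 and 11.06 ± 0.16 (SD, n = 3) for wild type, TTP, Myc and Myc TTP.

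Tnfrsf13b (chr11:61126283-61153170) encodes TACI, which binds BAFF and APRIL and is best known for plasma cell differentiation and restraint of B cell numbers. Its values were 12.14, 12.52 and 12.06 in wild type, 12.19, 12.17 and 11.62 in TTP, 11.24, 11.45 and 11.75 in Myc and 11.68, 11.56 and 11.61 in Myc TTP. The whole span of the 12 arrays was narrower than that of BAFF-R, and the Myc and wild-type arrays again did not overlap. Means were 12.24 ± 0.25, 11.99 ± 0.33, 11.48 ± 0.26 and 11.62 ± 0.06 (SD, n = 3).

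Cd40 (chr2:165055614-165071654) encodes the receptor for T cell help in germinal centres. It was at 8.98, 9.34 and 8.61 in wild type, 8.23, 9.001 and 7.09 in TTP, 5.93, 6.12 and 7.79 in Myc and 6.42, 6.30 and 6.06 in Myc TTP. Myc 3 was high within its group and TTP 3 low within its own, so that these single arrays crossed between TTP and Myc. Means were 8.98 ± 0.37, 8.11 ± 0.96, 6.61 ± 1.02 and 6.26 ± 0.18 (SD, n = 3). All 3 Cd40 probe sets passed the test in Myc over wild type, at -1.95, -2.37 and -2.66.

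**Figure D1:**
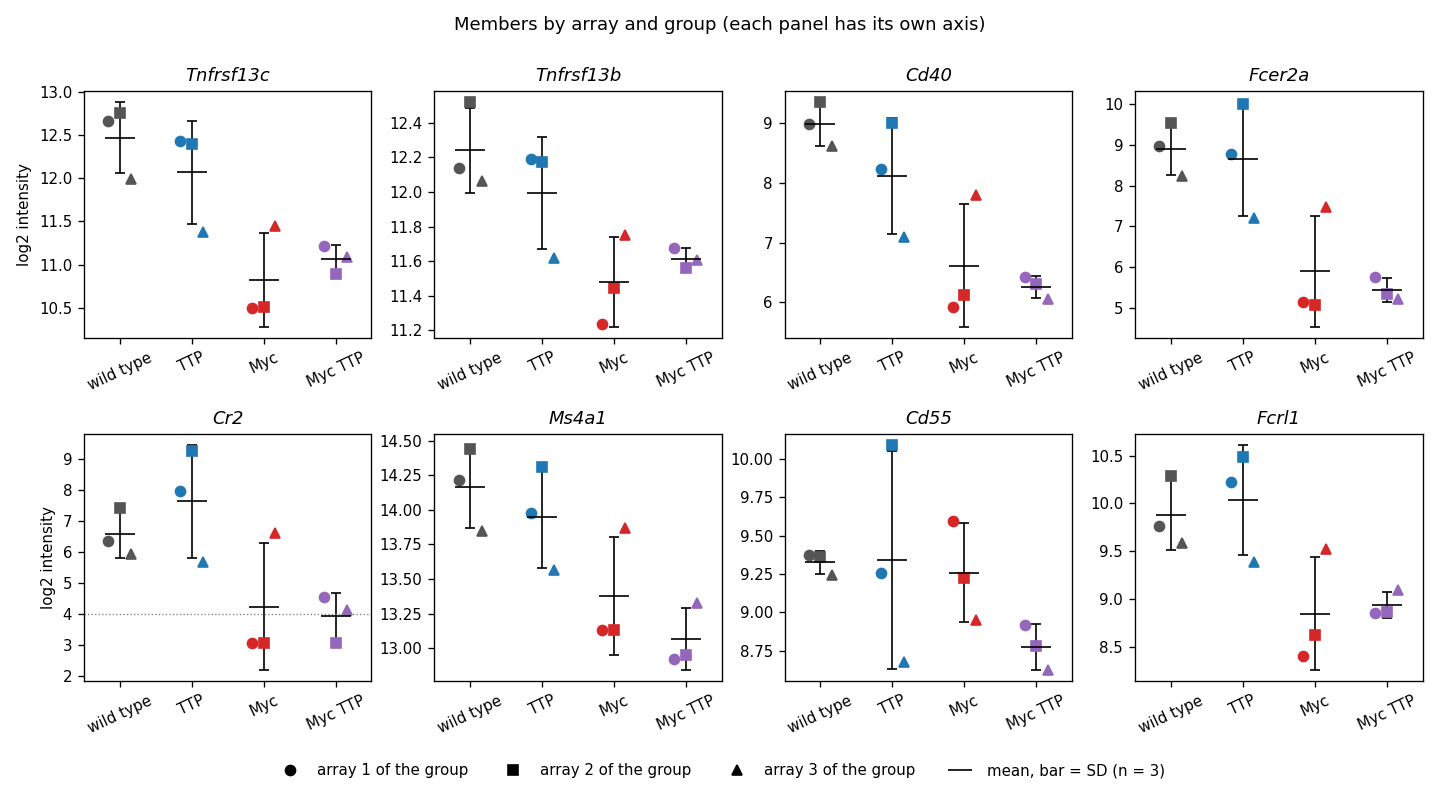
Log2 intensity of each of the 8 genes on the 12 arrays, 1 panel a gene, with groups along the horizontal axis. Circles, squares and triangles are replicates 1, 2 and 3, the black bar is the group mean with its SD (n = 3), and the dotted line at log2 4 in the Cr2 panel is the detection floor. Triangles of wild type and TTP lie low and those of Myc lie high in most panels, and Cd55 shows the flattest means, from 8.78 to 9.34.

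Among the markers of mature cells, CD23 showed the widest fitted difference and CD55 the smallest. In Myc over wild type Fcer2a fell by 3.02 ± 0.74 (SE, 8.12-fold, limma adjusted p 0.0479). The other 4 markers did not pass: Cr2 at -2.34 ± 1.04 (adjusted p 0.118), Fcrl1 at -1.03 ± 0.34 (0.0597), Ms4a1 at -0.79 ± 0.25 (0.0553) and Cd55 at -0.07 ± 0.30 (0.878) in the same limma fit. Myc and wild-type arrays did not overlap, Myc lower, for 5 of the 8 genes, the 4 that passed and Fcrl1, which 41.3% of all genes also did.

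Fcer2a (chr8:3680280-3694174) encodes CD23, the low-affinity IgE receptor of mature follicular B cells. It was at 8.97, 9.55 and 8.23 in wild type, 8.78, 10.00 and 7.20 in TTP, 5.13, 5.07 and 7.47 in Myc and 5.76, 5.33 and 5.21 in Myc TTP. Wild type and Myc did not overlap, and TTP 3 lay just under Myc 3. Means were 8.91 ± 0.66, 8.66 ± 1.40, 5.89 ± 1.37 and 5.43 ± 0.29 (SD, n = 3). A second, dimmer probe set was above the floor on 5 arrays, all without Myc, and under it on every Myc and Myc TTP array. It passed the filter only through arrays without Myc. Its bound of at least 3.18-fold in Myc over wild type is therefore no separate support.

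Cr2 (chr1:195136811-195176880) encodes CD21, the receptor for complement C3d that lowers the threshold of B cell activation. Its values were 6.36, 7.43 and 5.94 in wild type, 7.96, 9.28 and 5.68 in TTP, 3.06, 3.06 and 6.61 in Myc and 4.56, 3.08 and 4.14 in Myc TTP. Myc 1 and 2 and 1 Myc TTP array were under the floor, whereas Myc 3 stood above wild type 1 and 3. Means were 6.58 ± 0.77, 7.64 ± 1.82, 4.24 ± 2.05 and 3.93 ± 0.77 (SD, n = 3). Fitted Cr2 differences that involve these arrays rest in part on values under the floor, and only the bounds given with them can be read as sizes.

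Ms4a1 (chr19:11249679-11266149) encodes CD20, a B lineage membrane protein. It was at 14.21, 14.44 and 13.84 in wild type, 13.98, 14.31 and 13.57 in TTP, 13.13, 13.13 and 13.87 in Myc and 12.92, 12.95 and 13.33 in Myc TTP. Myc 3 lay just above wild type 3, so these groups touched, while all Myc TTP arrays lay below all TTP and wild-type arrays. Means were 14.17 ± 0.30, 13.95 ± 0.37, 13.38 ± 0.42 and 13.07 ± 0.22 (SD, n = 3). A second Ms4a1 probe set, above the floor on all 12 arrays, gave larger falls. It was at -1.10 in Myc over wild type, not called, where the chosen one was at -0.79. Averaged over TTP status it was at -1.36, called, where the chosen one was at -0.84.

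Fcrl1 (chr3:87376353-87403967) encodes an Fc receptor-like protein of B cells with activating motifs in its tail. It was at 9.77, 10.29 and 9.58 in wild type, 10.23, 10.49 and 9.39 in TTP, 8.41, 8.62 and 9.52 in Myc and 8.86, 8.86 and 9.10 in Myc TTP. Myc 3 came within a small step of wild type 3 and above TTP 3. Means were 9.88 ± 0.36, 10.03 ± 0.58, 8.85 ± 0.59 and 8.94 ± 0.14 (SD, n = 3). A second Fcrl1 probe set stayed near the floor, between 4.22 and 5.08, and did not pass.

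Cd55 (chr1:130429798-130465009) encodes decay-accelerating factor, which protects cells from complement. It was at 9.38, 9.36 and 9.24 in wild type, 9.26, 10.09 and 8.68 in TTP, 9.60, 9.23 and 8.95 in Myc and 8.92, 8.78 and 8.62 in Myc TTP. Wild-type, TTP and Myc arrays overlapped throughout, and Myc TTP arrays were lower than those of Myc and of wild type. Means were 9.33 ± 0.07, 9.34 ± 0.71, 9.26 ± 0.32 and 8.78 ± 0.15 (SD, n = 3). Its 3 probe sets disagreed in size for Myc over wild type, at -0.48, -0.27 and -0.07, and none passed.

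Single arrays decided which of these calls stood. Leaving out any one of wild type 1 or 2, TTP 1, Myc 1 or 2 and Myc TTP 1, 2 or 3 left 0 of the 8 genes called in Myc over wild type, and 0 of all genes. Without both libraries that go against their labels, 6 passed in limma, Cd40 at -2.55 (adjusted p 0.00357), Tnfrsf13c at -1.89 (0.00145), Tnfrsf13b at -0.85 (0.00307), Fcer2a at -3.36 (0.00389), Ms4a1 at -0.95 (0.00827) and Fcrl1 at -1.18 (0.0112), when 48.3% of all genes passed. Without Myc 3, 7 passed, among 20.9% of all genes, with Fcer2a at -3.81 and Cd40 at -2.95. Cr2 was the seventh, but both Myc arrays left are under the floor, so that only a bound of at least 5.97-fold can be given. Without all 4 arrays numbered 3 the same 7 passed, with Fcer2a at -4.16 and Cd40 at -3.14, among 54.7% of all genes.

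Averaged over TTP status, 7 of the 8 genes were lower with Myc. Comparing the 6 arrays with the Myc transgene with the 6 without it, Fcer2a fell by 3.13 ± 0.53 (SE, 8.73-fold), Cd40 by 2.11 ± 0.37 (4.31-fold), Tnfrsf13c by 1.33 ± 0.23 (2.51-fold), Fcrl1 by 1.06 ± 0.24 (2.09-fold), Ms4a1 by 0.84 ± 0.17 (1.79-fold) and Tnfrsf13b by 0.57 ± 0.13 (1.48-fold), each with a limma adjusted p of 0.0169. Cr2 also fell, by 3.02 ± 0.74 as fitted, with the same adjusted p, and at least 5.88-fold with each of the 3 arrays under the floor set to it. Cd55 was at -0.32 ± 0.21 and did not pass (adjusted p 0.235).

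Many genes differed in that comparison. Of all 10287, 43.2% passed and 24.6% did so in the lower direction, where 7 of these 8 lay. The median of the 8 was -1.19 against -0.06 over all genes. No gene of the 8 separated the 6 Myc arrays from the other 6 without overlap, as 0.865% of all genes did in the lower direction.

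The same 7 passed in all 12 fits that each left out 1 array, and Cd55 joined them without TTP 3. The highest limma adjusted p over these fits was 0.0474 for each of the 7, just under the threshold. The shares of all genes in these fits are not given here, so the counts are not a result about the 7. Without Myc 3, the bound for Cr2 was 7.94-fold. Without both libraries that go against their labels all 8 passed limma's test, Cd55 at -0.50 (adjusted p 0.0353) and the others from -0.71 for Tnfrsf13b to -3.66 for Fcer2a, with Cr2 at least 9.21-fold lower, and with 61.1% of all genes called. Without the 4 arrays numbered 3 the 7 passed again, among 63.1% of all genes, from -0.78 for Tnfrsf13b to -4.001 for Fcer2a, with Cr2 at least 12.3-fold lower as 3 of its 4 arrays with Myc are under the floor. One other Cd55 probe set passed in the comparison of all arrays, at -0.74 (limma adjusted p 0.0286), and the third was at -0.47 (0.108).

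The scale of the arrays moved the whole distribution. Setting each array to a common median moved the median of all genes from -0.21 to 0.05 in Myc over wild type and from -0.06 to 0.04 in the averaged comparison, and the share of calls that were lower in the latter from 56.8% to 48.1%. Quantile normalization put that share at 42.9%. On the common-median scale the averaged differences were -3.03 for Fcer2a, -2.92 for Cr2, -2.01 for Cd40, -1.23 for Tnfrsf13c, -0.96 for Fcrl1, -0.74 for Ms4a1, -0.47 for Tnfrsf13b and -0.22 for Cd55, and the same 7 genes passed. The Cr2 value is as fitted, with 3 arrays with Myc under the floor, and is not a size. In Myc over wild type none of the 8 passed on that scale, as for all genes (0%). Limma adjusted p was 0.0631 for Tnfrsf13c, Tnfrsf13b, Cd40 and Fcer2a, and Cd55 turned to 0.19.

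**Figure D2:**
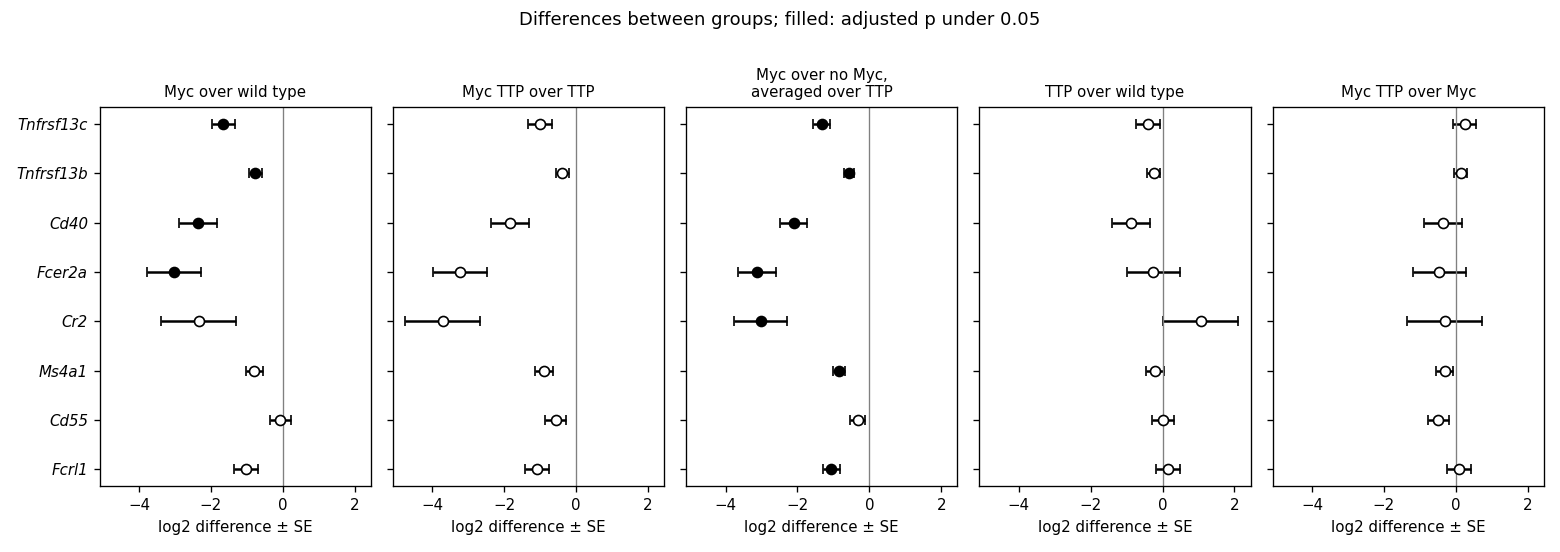
Log2 differences of the 8 genes in the comparisons between groups, with bars of 1 SE from the limma fit and filled points for adjusted p under 0.05. The 4 filled points of Myc over wild type run from -0.76 to -3.02 and the 7 of the comparison averaged over TTP status from -0.57 to -3.13, while those of TTP over wild type run from -0.87 to 1.06 with none filled.

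In the TTP background, Myc gave estimates in the same direction with no gene called. Myc TTP over TTP was at -3.71 ± 1.04 (SE) for Cr2, at least 10.6-fold with the 1 array under the floor set to it, -3.23 ± 0.74 for Fcer2a and -0.88 ± 0.25 for Ms4a1, each with a limma adjusted p of 0.0607. Cd40 was at -1.85 ± 0.53 (0.0610), Fcrl1 at -1.09 ± 0.34 (0.0640), Tnfrsf13c at -1.005 ± 0.33 (0.0708), Tnfrsf13b at -0.38 ± 0.19 (0.163) and Cd55 at -0.57 ± 0.30 (0.189). Among all genes 0 passed in limma, or 0%, and 36% had an unadjusted p under 0.05, 9.89% in the lower direction, where 6 of the 8 lay. Groups did not overlap, Myc TTP lower, for 6 of the 8 and for 5.36% of all genes. Leaving out TTP 3 alone gave 8 calls of 8, among 38.4% of all genes, and leaving out wild type 3 alone gave 6, among 18.5%. Without both libraries that go against their labels, all 8 passed, from -0.57 for Tnfrsf13b to -3.96 for Fcer2a, with Cr2 at least 20.9-fold lower, among 42.9% of all genes.

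Mice with both transgenes were lower than wild type in all 8 genes without overlap, which held for 20.6% of all genes. The differences ran from -0.55 for Cd55 to -3.48 for Fcer2a. None of the 8 passed, and 1 of all genes did (0.00972%), with limma adjusted p of 0.0520 for Tnfrsf13c, Cd40, Fcer2a and Ms4a1, 0.0533 for Tnfrsf13b, 0.0751 for Fcrl1, 0.0954 for Cr2 and 0.192 for Cd55. All but Cd55 of the 8 had an unadjusted p under 0.05, each lower, against 38% of all genes and 14.7% in the lower direction. With wild type 3 and TTP 3 left out, 7 passed, all but Cd55, among 43.9% of all genes. These comparisons share groups with those above and do not count as separate evidence.

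The TTP transgene had no called effect on any of the 8 genes. In TTP over wild type the estimates were -0.40 ± 0.33 (SE) for Tnfrsf13c, -0.25 ± 0.19 for Tnfrsf13b and -0.87 ± 0.53 for Cd40 among the receptors. The markers were at 1.06 ± 1.04 for Cr2, -0.25 ± 0.74 for Fcer2a, -0.22 ± 0.25 for Ms4a1, 0.02 ± 0.30 for Cd55 and 0.16 ± 0.34 for Fcrl1. No gene of the 10287 passed in limma (0%) and 1.45% had an unadjusted p under 0.05, none of these 8 among them. Leaving out both libraries that go against their labels gave values of -0.30 for Tnfrsf13c, -0.15 for Tnfrsf13b, -0.55 for Cd40, 1.73 for Cr2, 0.13 for Fcer2a, -0.19 for Ms4a1, 0.31 for Cd55 and 0.33 for Fcrl1, none called (1 of all genes was, 0.00972%), so that Fcer2a took the other sign. Without TTP 3 alone, Cr2 was at 2.04, Fcer2a at 0.48, Cd40 at -0.36 and Tnfrsf13c at -0.06. On all arrays both groups overlapped for every one of the 8, while 3.65% of all genes lay lower and 0.603% higher without overlap.

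In Myc marrow no difference with TTP was called, and 3 of the 8 signs turned without Myc 3. Myc TTP over Myc was at 0.24 ± 0.33 (SE) for Tnfrsf13c, 0.14 ± 0.19 for Tnfrsf13b, -0.35 ± 0.53 for Cd40, -0.46 ± 0.74 for Fcer2a, -0.31 ± 1.04 for Cr2, -0.31 ± 0.25 for Ms4a1 and 0.09 ± 0.34 for Fcrl1. Cd55 was at -0.48 ± 0.30, the only one of the 8 with groups that did not overlap, as 1.41% of all genes did in that direction. Adjusted p in limma ran from 0.377 to 0.881, none of all genes passed (0%) and 19.1% had an unadjusted p under 0.05. The median of the 8 was -0.31 and that of all genes 0.27. Without Myc 3, Cd40 turned to 0.23 and Fcer2a to 0.33, and Tnfrsf13c was at 0.56, none called. Cr2 also turned higher. With arrays under the floor on both sides, no size can be given for Cr2 in this comparison, with or without Myc 3. Without the 4 arrays numbered 3, Tnfrsf13c passed, higher in Myc TTP by 0.55 (limma adjusted p 0.0240), among 14.7% of all genes. Without both libraries that go against their labels, none was called in either the averaged TTP comparison, from -0.45 for Cd40 to 0.71 for Cr2, or the interaction. Averaged over Myc status on all arrays, TTP estimates lay between -0.61 for Cd40 and 0.37 for Cr2, with none called, as for all genes (0%). Of all genes 5.67%, but none of the 8, had an unadjusted p under 0.05. The Cr2 value has arrays under the floor on both sides and is not a size.

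The interaction, which asks whether the Myc difference depends on TTP, was called for none of the 8 and for 0% of all genes, of which 13.1% had an unadjusted p under 0.05. It was 0.65 ± 0.47 (SE) for Tnfrsf13c, 0.38 ± 0.26 for Tnfrsf13b, 0.52 ± 0.75 for Cd40 and -1.38 ± 1.48 for Cr2, with limma adjusted p from 0.485 to 0.949 over the 8. With 3 arrays a group the interaction was least precise for Cr2 and for Fcer2a, which was at -0.21 ± 1.05.

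Genes of the whole B lineage were lower with Myc too. The 7 that were tested (Cd79a, Cd79b, Pax5, Ebf1, Blnk, Cd24a and Ptprc) had a mean log2 of 13.62 ± 0.28, 13.40 ± 0.33, 12.87 ± 0.27 and 12.98 ± 0.07 (SD, n = 3) in wild type, TTP, Myc and Myc TTP, and all 7 passed as lower in the averaged comparison, with and without both libraries that go against their labels. The part of this shift in the results was not tested, and each gene can be read against that mean. Whether other cells in the samples add to the signal of these 7 genes was not tested. The choice of this scale was made after the values were seen. It moves the median of all genes in the averaged comparison from -0.06 to 0.53, and 69.3% of all genes then pass, so that 13.4% of calls are lower.

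Read against the lineage mean, CD23 and CD40 still differed widely and TACI hardly at all. For CD21, 3 arrays with Myc were under the floor, so its fitted value below is not a size. With each array set to a common mean of those 7 genes, 5 of the 8 passed as lower with Myc averaged over TTP status: Fcer2a at -2.54 ± 0.41 (SE), Cd40 at -1.52 ± 0.28 and Tnfrsf13c at -0.74 ± 0.14, each at a limma adjusted p of 0.00553, Cr2 at -2.44 ± 0.62 (0.00627) and Fcrl1 at -0.47 ± 0.16 (0.0214). Ms4a1 was at -0.25 ± 0.13 (0.0929). Its second probe set, with the larger falls, was not set to this mean, so this reading may depend on the probe set. Tnfrsf13b was at 0.02 ± 0.10 (0.897) and Cd55 at 0.27 ± 0.21 (0.267), both with their sign turned. In Myc over wild type, Tnfrsf13c at -0.90, Cd40 at -1.62 and Fcer2a at -2.27 passed on this scale (limma adjusted p 0.0387), as did 42.7% of all genes, of whose calls 13.1% were lower.

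The 2 receptors for BAFF thus moved by unequal amounts. TACI less the lineage mean was -1.38 ± 0.25, -1.40 ± 0.03, -1.39 ± 0.03 and -1.36 ± 0.02 (SD, n = 3) in wild type, TTP, Myc and Myc TTP. BAFF-R less that mean was -1.15 ± 0.15, -1.33 ± 0.27, -2.05 ± 0.30 and -1.91 ± 0.11. Only shifts between arrays have meaning in such a value, since probe sets differ in brightness.

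The log2 value of Tnfrsf13c less that of Tnfrsf13b, a measure chosen after their values were seen and unaffected by any scaling of an array as a whole, was 0.52, 0.23 and -0.07 in wild type and 0.23, 0.22 and -0.24 in TTP. It was -0.74, -0.94 and -0.31 in Myc and -0.46, -0.67 and -0.52 in Myc TTP. All 6 arrays with Myc lay below all 6 without, by 0.76 on average (-0.61 ± 0.22 against 0.15 ± 0.27, SD), with a gap between Myc 3 and TTP 3 that was small. As the measure was chosen on these arrays, this separation describes them only. How often other pairs of genes separate the arrays in this way was not tested. Without both libraries that go against their labels the difference was -0.91, and without the 4 arrays numbered 3 it was -1.01.

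**Figure D3:**
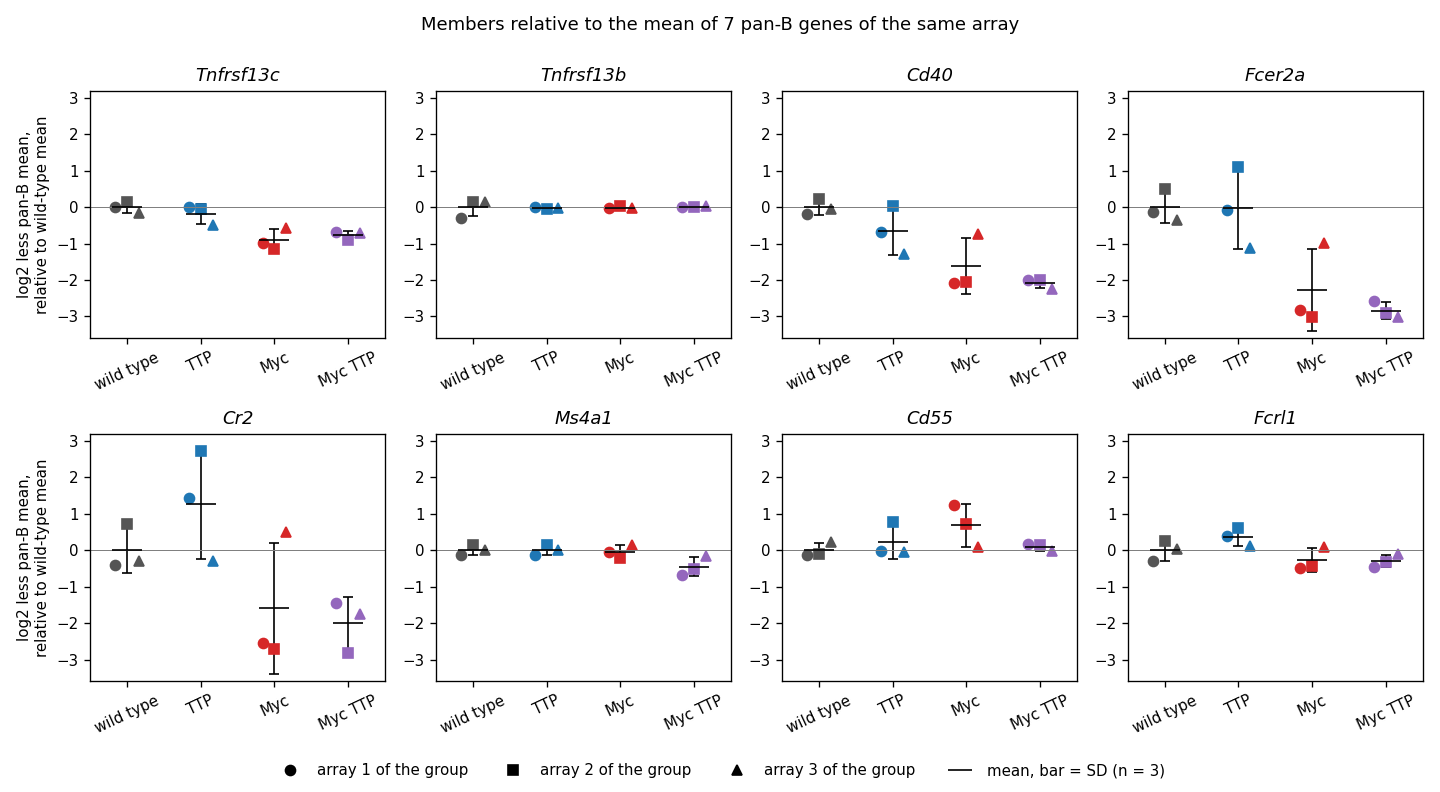
Each gene's log2 value less the mean of the 7 B lineage genes on the same array, shifted so that the wild-type mean is 0, with groups along the horizontal axis. Symbols are replicates 1, 2 and 3 as circle, square and triangle, and bars are the mean and SD (n = 3). Fcer2a, Cr2 and Cd40 lie lowest in Myc and Myc TTP, whereas Tnfrsf13b stays within a narrow band around 0 in all 4 groups. For Cr2, 3 arrays with Myc are under the floor.

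The ligand BAFF itself (Tnfsf13b), made chiefly by myeloid and stromal cells, was lower as well. It was at 7.48, 7.06 and 6.25 in wild type, 7.39, 7.34 and 5.10 in TTP, 2.54, 2.54 and 4.72 in Myc and 5.83, 4.15 and 4.23 in Myc TTP. With the 2 Myc arrays under the floor set to it, the fall with Myc was at least 6.45-fold over wild type (limma adjusted p 0.0479) and at least 4.86-fold averaged over TTP status (0.0169). The bounds were 8.16-fold and 7.11-fold, and both tests passed, without both libraries that go against their labels. CD40 ligand (Cd40lg, 2.25 to 2.73) and BCMA (2.00 to 2.78) were under the floor on all arrays, and APRIL was not analysed here.

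Of 9 tested adaptors and ligases that sit under these receptors, 3 fell in the averaged comparison and none rose, or 4 fell and 1 rose (Otub1, at 0.47) without both libraries that go against their labels. The share of all genes called lower was 24.6%, and 37% without those libraries. Birc3, which encodes cIAP2, fell by 1.40 ± 0.28 (SE), Tnfaip3, which encodes the NF-κB inhibitor A20, by 2.67 ± 0.60 and Birc2, which encodes cIAP1, by 0.47 ± 0.15 (limma adjusted p 0.0169, 0.0169 and 0.0295). Traf2 was at 0.07, Traf5 at 0.06 and Traf6 at -0.22, not called. In Myc over wild type 4 passed as lower, Traf3ip3 at -0.44 in addition, where 10.6% of all genes did, and without those libraries 4, where 34.3% did. The median of the 9 was -0.21 in the averaged comparison, beside -0.06 over all genes.

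Of 9 tested NF-κB genes, 6 fell in the averaged comparison and none rose, where 24.6% of all genes were called lower. The count was 8, where 37% of all genes fell, without both libraries that go against their labels. Both subunits of the alternative pathway were among them, Nfkb2 by 2.24 ± 0.47 (SE) and Relb by 1.90 ± 0.43, with the inhibitors Nfkbie by 2.11 ± 0.38 and Nfkbia by 1.17 ± 0.26, each at a limma adjusted p of 0.0169. The kinase NIK (Map3k14) fell by 0.53 ± 0.19 (0.0405) and the subunit Rel by 0.52 ± 0.16 (0.0285). Rela was at -0.23, Ikbkb at -0.09 and Ikbkg at -0.22, not called. Nfkb2, Relb, Nfkbie, Nfkbia, Birc3 and Tnfaip3 are also textbook targets of NF-κB. The median of the 9 was -0.53.

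Nfkb2 shows the pattern by array: 10.13, 10.50 and 9.25 in wild type, 10.12, 10.33 and 8.61 in TTP, 6.42, 6.50 and 8.82 in Myc and 8.48, 7.39 and 7.89 in Myc TTP. Myc 3 was again high within its group, above TTP 3. In Myc over wild type Nfkb2 at -2.71, Relb at -2.42, Nfkbie at -2.31 and Nfkbia at -1.53 passed, where 10.6% of all genes were lower.

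**Figure D4:**
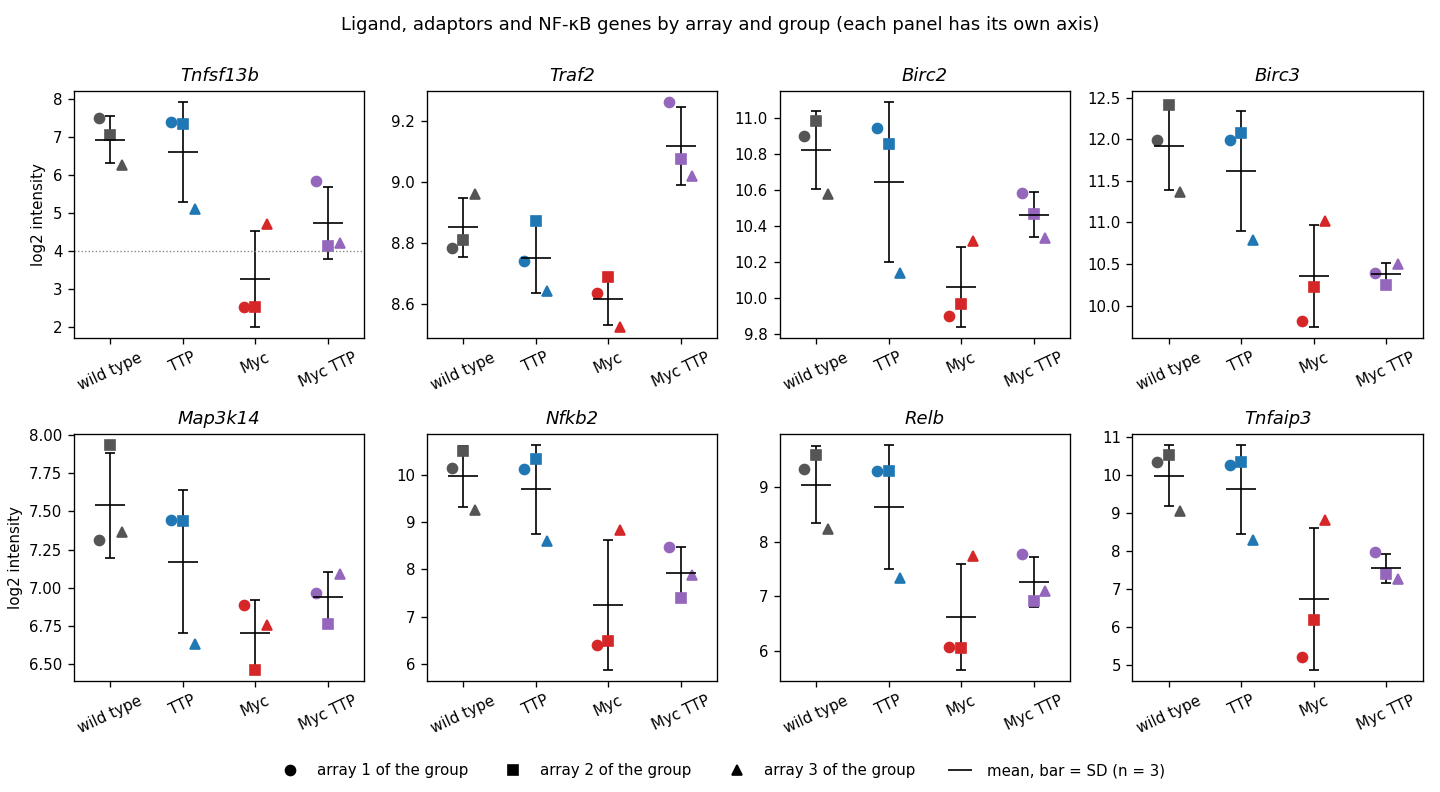
Log2 intensity on the 12 arrays of genes upstream and downstream of the receptors, 1 panel a gene, with replicates 1, 2 and 3 as circle, square and triangle, the group mean and SD (n = 3) as bars, and the detection floor at log2 4 dotted in the Tnfsf13b panel. Myc 1 and 2 of Tnfsf13b lie at 2.54, below the floor, and Myc 3 lies above Myc 1 and 2 for Tnfsf13b and Nfkb2.

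Genes near CD21 in function were also read. Of the 5 tested genes of the complement receptor and tetraspanin group, Cr2 and Cd55 included, 3 fell in the averaged comparison: Cr2 as above, Cd59a, another shield against complement, by 1.30 ± 0.46 (SE, limma adjusted p 0.0423) and Cd81, a tetraspanin, by 0.31 ± 0.12 (0.0487). Cr1l was at -0.22. The share of all genes called lower was 24.6%. None of the 5 passed in Myc over wild type. Without both libraries that go against their labels 5 passed as lower in the averaged comparison and 3 in Myc over wild type, Cd59a, Cd81 and Cr1l, where 37% and 34.3% of all genes did.

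Other genes of mature B cells showed the same direction. Of 26 tested genes outside these 8, 21 fell in the averaged comparison and none rose, with a median of -0.84, and 12 fell in Myc over wild type, with a median of -1.12. Cd79b and Pax5 are counted here and also among the genes of the whole B lineage above. Over all genes 24.6% and 10.6% were called lower, and the medians were -0.06 and -0.21. Leaving out both libraries that go against their labels gave counts of 24 and 22, where 37% and 34.3% of all genes were called lower. The lymphotoxin subunit Ltb fell by 2.93 ± 0.70 (SE), the maturation marker Cd83 by 2.80 ± 0.66, the follicle homing receptor Cxcr5 by 2.36 ± 0.57 and Bcl2, the survival factor, by 1.72 ± 0.50 (limma adjusted p 0.0169, 0.0169, 0.0169 and 0.0214). Ccr7, Cd22, Fcrla, H2-DMb2 and S1pr1 were the 5 that did not pass, at -0.41, -0.47, -0.19, -0.16 and -0.35. Ltbr, among the 21, was under the floor on every array with Myc and passed the filter only through arrays without it. Ccr6, also among them, was under the floor on 3 Myc and 2 Myc TTP arrays, and on some arrays without Myc. No size can be given for either.

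Markers of earlier B cells and of other lineages moved with Myc too. All 14 tested pro-B and pre-B genes were called lower in the averaged comparison (median -1.48), where 24.6% of all genes were. Granulocyte genes were lower in 14 of 14 (median -3.18), monocyte genes in 7 of 7, plasmacytoid dendritic genes in 8 of 8, erythroid genes in 8 of 9 and NK genes in 6 of 7. Plasma cell genes were lower in 4 of 6, and of 2 tested T cell genes 1 was lower and 1 higher. The T cell gene Cd3d, the NK gene Prf1 and the plasma cell gene Prdm1 were under the floor on every array with Myc. They passed the filter only through arrays without it, so no size can be given for them. The summed granulocyte level was 17.81 to 18.30 in wild type, 17.47 to 18.49 in TTP, 16.71 to 17.30 in Myc TTP and 13.19, 14.55 and 17.72 in Myc 1, 2 and 3. Leaving out both libraries that go against their labels gave 14 of 14 for pro-B and pre-B, 14 of 14, 7 of 7, 8 of 8, 9 of 9 and 7 of 7 for the lists in the order above, and 5 of 6 for plasma cells. The share of all genes called lower was then 37%. The part of these cells in the results was not tested. No gene of these lists passed in Myc TTP over Myc.

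Over the 12 arrays 7 of the genes moved together and Cd55, by its probe set of highest mean, stood apart. Its other probe sets were not correlated here. One of them passed as lower in the averaged comparison, at -0.74 (limma adjusted p 0.0286), so the contrast may depend on the probe set. Pearson's r between pairs of the 7 lay between 0.85 and 0.98 (21 pairs), and between Cd55 and each of them between 0.38 and 0.55, across arrays that fall in 4 groups and share the difference along the first principal component, which held 73.5% of the variance. The 2 genes most alike in pattern over the 12 arrays were Dnajc7 (r 0.994) and Parp4 (0.992) for Tnfrsf13c, Chd2 and Cd79a (both 0.981) for Tnfrsf13b, and Cd209a (0.992) and Dusp10 (0.987) for Cd40. For the markers they were Cd200 (0.994) and Gm8369 (0.989) for Fcer2a, Mapk13 (0.980) and Tnfrsf1a (0.974) for Cr2, Adcy7 and Klhl14 (both 0.968) for Ms4a1, Rab31 (0.917) and Rasgrp2 (0.867) for Cd55, and Gpr183 (0.985) and Gm8369 (0.980) for Fcrl1. With 12 arrays in 4 groups, these values describe likeness and nothing more.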

How the data were processed

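RNA of 12 samples was hybridised to 1 array each. The authors deposited 1 linear intensity per probe set and array, made with GCRMA per the submitters' processing notes. Its version and settings are not stated in the sources used here. GCRMA corrects background and brings arrays toward 1 distribution, which can hide a change common to most genes. The deposited values still differed in scale between arrays, as their medians below show. Of 45101 probe sets, 34958 have 1 gene symbol in the platform annotation, 932 several and 9211 none, and 34754 were matched by Entrez ID to RefSeq (GRCm38.p6). Array medians were 10.9 to 13.9 in intensity, and 46.0% to 48.7% of probe sets exceeded log2 4. No count or depth applies to arrays, and their number limits the precision.

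The 4 group means were fitted to log2 intensity with limma 3.58.1 (lmFit, eBayes with trend) in R 4.3.3, tests two-sided, with Benjamini-Hochberg adjustment over 10287 genes and a threshold of 0.05. The fit was tested on simulated data with independent noise of the same spread for all genes. That setting does not cover shifts shared between arrays or unequal spread. A fold is 2 to the power of the log2 difference, and where arrays lie under log2 4 a bound is given with each such array set to 4. The genes named are the listed 9, genes of the pathway and marker lists, and for each listed gene the 2 with the highest correlation. The members and lists were chosen with earlier results of these data known. After removal of group means, same-numbered arrays correlated positively between wild type and TTP (0.50 to 0.82). They correlated negatively between wild type and Myc (-0.63 to -0.28), TTP and Myc (-0.65 to -0.33) and Myc and Myc TTP (-0.40 to -0.03). Values were mixed between Myc TTP and wild type (-0.06 to 0.33) and between Myc TTP and TTP (-0.06 to 0.50). As the sign differed between groups, numbers were not taken as pairs. Alternatives were other filters, probe sets, scalings and tests, a replicate block, and arrays left out. The scaling to pan-B genes, and the lists without 2 arrays, were added after the data were seen.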

Additional observations from a re-analysis of the deposited data

How the results depend on the processing

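Of the 8 genes, 4 were called in Myc over wild type, among 11% of all genes. The count was 0 with no filter, the probe set of largest SD, quantile normalization, a common median or no intensity trend. It was also 0 in an unmoderated model or at adjusted p under 0.01. In each of those settings 0% of all genes passed too, so the 0 is not a result about the 8. The count was 7 without the 4 arrays numbered 3, where 54.7% of all genes passed. Over the 12 fits that left out 1 array it was 0 to 7, among 0% to 35.1% of all genes. The 7 calls averaged over TTP status held in all of these except at adjusted p under 0.01, where there were 0. They ranged from 7 to 8 over the fits that left out 1 array. Of all genes 43.2% passed in that comparison, with a lowest limma adjusted p of 0.0169, so no gene can pass at 0.01. At a common median 5134 of 10287 genes passed, and 5430 of 10314 after quantile normalization. In Myc TTP over TTP the count went from 0 to 8 without both libraries that go against their labels, to 8 without the 4 arrays numbered 3 and to 4 at a common mean of the pan-B genes, and was 0 to 8 with 1 array left out. At that mean 2590 of all 10287 genes passed. In Myc TTP over wild type the count of the 8 went from 0 to 5 with the filter at log2 6, to 7 with only the arrays compared, to 7 without wild type 3 and TTP 3, to 7 without the 4 arrays numbered 3 and to 4 at the pan-B mean, and was 0 to 7 with 1 array left out. At the pan-B mean 5825 of all 10287 genes passed. The shares of all genes without wild type 3 and TTP 3 are given with these comparisons above. Without the 4 arrays numbered 3, 1 gene, Tnfrsf13c, was called in Myc TTP over Myc, where 14.7% of all genes passed. In the interaction 1 was called there, again Tnfrsf13c. Where no share of all genes stands beside a count, the count describes that setting and is not a result about the 8. The sign of Tnfrsf13b in the averaged comparison turned to 0.016 at the pan-B mean. For the other changes the cause was not tested.

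With the replicate block the calls in Myc over wild type were 0, as for all genes (0%). Limma adjusted p was 0.0637 for those 4 genes, and the 7 calls averaged over TTP status remained. The numbers were not taken as pairs, so this describes the fit only. Over all alternatives 1451 values for single genes and comparisons kept direction and side of the threshold, and 67, in 23 pairs of a gene and a comparison, took the other sign while called under neither setting. Another 103 passed the threshold newly, 74 no longer did, and 1 called value reversed. Signal near the floor limits Cr2 and the second probe sets of Fcer2a and Fcrl1.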
